A study of Mus musculus with 6 samples.

Results

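Mouse induced pluripotent stem cells (iPSCs) made with 4 transcription factors (4F-iPSCs) were compared with iPSCs made with small molecules (C-iPSCs), CpG by CpG. Methylation was measured by reduced representation bisulfite sequencing (RRBS), in which CpG-rich fragments are treated with bisulfite so that a methylated cytosine is still read as C and an unmethylated one as T. The level of a CpG is its share of methylated reads. A CpG entered the comparison when each of the 4 iPSC libraries, 2 for each cell type, had at least 10 reads on it, and 1040936 CpGs of the 1504971 with a read in any of the 4 libraries did so. In the whole series of 6 libraries, 1531642 CpGs had a read.

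Both iPSC types were male, at passages 5 to 10, and derived from OG2-MEFs, mouse embryonic fibroblasts with a GFP reporter under Oct4 regulatory sequence. The mice named for these fibroblasts were of C57BL/6J, 129S4/SvJaeJ, and CBA/CaJ. The 4F-iPSCs came from infection with retroviruses for Oct4, Sox2, Klf4, and c-Myc, and the C-iPSCs from a cocktail of small molecules applied in stages. The cocktail was given with bFGF and included VPA, tranylcypromine, DZNep, and, in a middle stage, 5-Aza-2′-deoxycytidine. The part of these compounds in the levels was not tested. Male E14 mouse embryonic stem cells (mESCs) at passages 20 to 30 are given beside the iPSCs for context only. All cells were grown in serum with LIF and 2i, the pair of kinase inhibitors that holds mouse cells in the naive state, and feeder cells were removed on gelatin before collection. No source used here says whether the 2 libraries of a type are separate lines or cultures of 1 line. Tests that use the spread between these libraries take it from many CpGs or promoters together, and it may be technical.

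CpG methylation is written by DNMT3A and DNMT3B, copied at each cell division by DNMT1, and removed by TET enzymes or by division without copying. CpG-dense promoters stay free of it in most cells. At imprinted genes, 1 parental copy of a control region keeps the methylation laid down in the egg or sperm, so that a level near the middle of the scale is usual in the body. ZFP57, a zinc finger protein that binds the hexamer TGCCGC when it is methylated, helps to keep that mark through early development. Promoters of genes that act in germ cells are another class that is methylated in body cells, and naive pluripotent cells carry little methylation in most of the genome.

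The sequences below are examples, outside the imprinted clusters that the study names, of the kinds of region described here: coding exons, an imprinted gene, and a germ-cell gene. Each is the plus strand of GRCm38 from the RefSeq assembly, 5′ to 3′, and capitals mark CpGs at which all libraries of one type were above all libraries of the other by the call explained further on. The first is in the coding part of the last exon of Zfp316 (chr5:143253685-143253846), which encodes a zinc finger protein, and the second in a coding exon of Repin1 (chr6:48597481-48597639), which encodes a zinc finger protein that binds replication origins. The third lies in the coding exon of the imprinted gene Nap1l5 (chr6:58906718-58906872), and the fourth in the first intron of Dazl, just downstream of its start (chr17:50293257-50293370), which encodes an RNA-binding protein that germ cells need. In these 4, the 4F-iPSCs were higher.
Zfp316: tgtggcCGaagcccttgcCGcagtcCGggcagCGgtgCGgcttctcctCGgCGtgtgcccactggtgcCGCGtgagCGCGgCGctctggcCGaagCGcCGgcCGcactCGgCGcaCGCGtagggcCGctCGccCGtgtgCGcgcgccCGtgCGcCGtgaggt
Repin1: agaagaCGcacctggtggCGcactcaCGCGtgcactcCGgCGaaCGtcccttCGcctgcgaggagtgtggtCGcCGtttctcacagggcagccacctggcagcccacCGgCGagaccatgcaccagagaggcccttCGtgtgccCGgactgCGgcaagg
Nap1l5: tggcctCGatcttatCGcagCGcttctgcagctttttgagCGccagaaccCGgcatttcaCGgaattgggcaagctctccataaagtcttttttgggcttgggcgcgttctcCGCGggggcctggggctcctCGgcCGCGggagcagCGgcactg
Dazl: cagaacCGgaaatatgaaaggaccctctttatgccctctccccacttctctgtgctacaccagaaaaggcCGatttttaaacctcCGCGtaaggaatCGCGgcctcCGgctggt

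In the next 2 stretches the C-iPSCs were higher. One lies in an intron of Sox30 (chr11:46014508-46014551), a transcription factor gene of male germ cells. The other is in a coding exon of Rest (chr5:77268521-77268611), which encodes the repressor that keeps neuronal genes silent elsewhere. The stretches at Dazl and Rest were chosen after their values were seen.
Sox30: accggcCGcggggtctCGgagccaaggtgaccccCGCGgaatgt
Rest: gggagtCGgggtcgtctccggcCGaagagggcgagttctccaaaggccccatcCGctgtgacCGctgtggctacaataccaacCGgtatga

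The 4 iPSC libraries had between 84792206 and 96534037 reads on CpGs, with a median of 43 to 54 reads per covered CpG. Of the reads on mitochondrial DNA, which is taken to be unmethylated, 3.33% and 7.90% were read as methylated in 4F-iPSC libraries 1 and 2, and 3.12% and 5.38% in C-iPSC libraries 1 and 2. Library 2 was therefore the higher of each type. As a check of cell identity, the promoters of pluripotency genes were at or under 22.5% in every iPSC library. At Pou5f1 (Oct4), 5 CpGs averaged 11.7% and 22.5% in 4F-iPSCs, and 5.76% and 6.71% in C-iPSCs. The iPSC libraries had 1493 to 1674 reads at these CpGs, against 73 and 100 in the mESC libraries. The Pou5f1 levels therefore rest on an excess of reads and are a weak check of identity. At Nanog, the 2 compared CpGs averaged 12.1% and 11.4% in 4F-iPSCs, and 11.3% and 7.85% in C-iPSCs. At Zfp42 (Rex1), a marker of naive cells, 11 CpGs averaged 7.16% and 12.6% against 6.38% and 6.90%. Dppa3 and Tdgf1 had no compared CpG.

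The 4F-iPSCs carried more methylation than the C-iPSCs outside CpG-dense promoters. Over all compared CpGs, the mean level was 32.5% and 33.9% in the 4F-iPSC libraries, and 25.8% and 30.3% in the C-iPSC libraries. Both 4F-iPSC libraries were above both C-iPSC libraries, and the C-iPSC libraries were farther from each other than the 4F-iPSC libraries were. The mean difference was 5.14 percentage points, 33.2% ± 1.01 (SD, n = 2) against 28.0% ± 3.19 (SD, n = 2). The two-sided exact permutation test gave p = 0.3333, the smallest that 2 libraries against 2 allow. Between libraries of the same number the difference was 6.68 points for libraries 1 and 3.60 points for libraries 2. Without C-iPSC library 1 the mean difference was 2.88 points, and from pooled reads it was 7.99 points. The nearest libraries, 4F-iPSC library 1 and C-iPSC library 2, differed by 2.17 points in the mean and by 0 in the median, with the 4F-iPSC library higher at 45.5% of CpGs. The mESC libraries, at 20.2% and 21.7% on these CpGs, were below both.

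The size of the gap depended on the kind of sequence. In intergenic DNA the 4F-iPSC libraries were at 66.0% and 67.0%, and the C-iPSC libraries at 52.4% and 60.4%, a difference of 10.1 points. Introns outside promoters differed by 9.01 points and exons by 8.31 points, again with all 4F-iPSC libraries above all C-iPSC libraries. Promoters were sorted by CpG content into high (HCP), intermediate (ICP), and low (LCP) classes. LCPs differed by 10.5 points, with 64.8% and 65.4% against 50.1% and 59.2%, and ICPs by 5.76 points. HCPs overlapped between the types, at 3.63% and 5.55% in 4F-iPSCs and 2.98% and 4.09% in C-iPSCs, with library 2 the higher in each type, as on mitochondrial DNA. The part of that read-out in the levels of HCPs was not tested. Over all CpGs within promoters, which were 53.2% of those compared, the types overlapped too, with 6.57% and 8.33% against 5.25% and 6.73% (two-sided exact permutation p = 0.667).

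**Figure D1:**
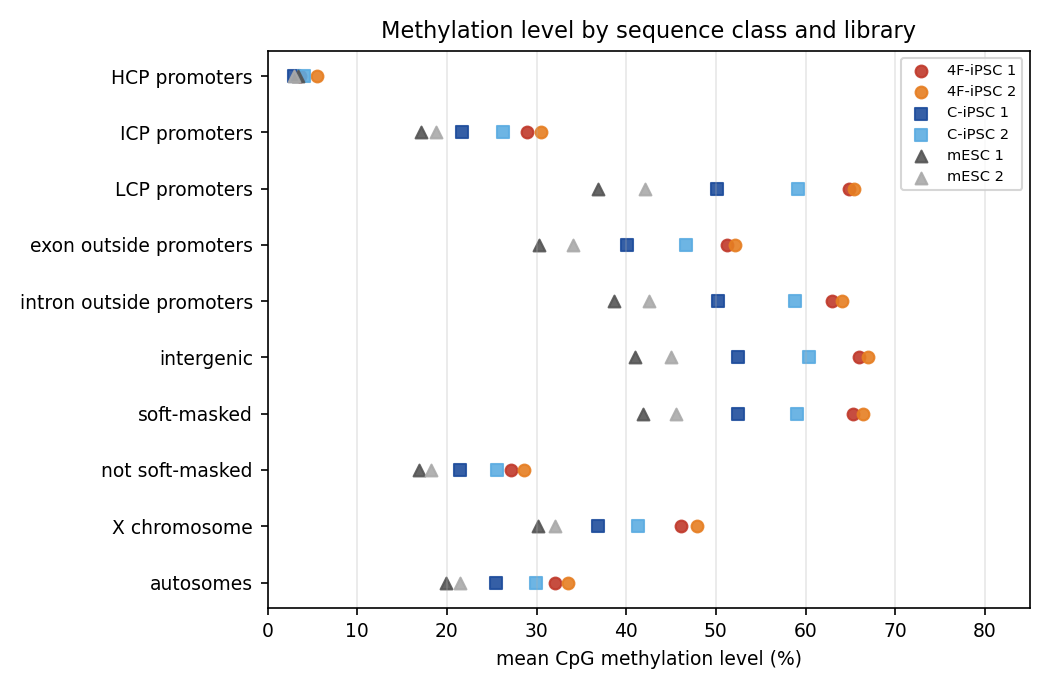
Mean CpG methylation level in percent (x axis) by sequence class (y axis), 1 point for each library, with promoter classes averaged over promoters and the other classes over compared CpGs. In the 9 plotted classes other than HCPs, both 4F-iPSC libraries lie above both C-iPSC libraries, and in intergenic DNA the difference is 10.1 points.

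At single CpGs the excess in 4F-iPSCs was nearly one-sided. A CpG was called when the mean levels differed by more than 33.3 percentage points, both libraries of one type lay above both of the other, and Fisher's exact test, two-sided, on the reads added up over each type gave an unadjusted p under 0.05. With this rule 10871 CpGs (1.04% of those compared) were higher in 4F-iPSCs and 251 (0.0241%) were higher in C-iPSCs. A quasi-binomial model, which adds a spread between libraries common to all CpGs, gave 28619 CpGs higher in 4F-iPSCs (2.75%) and 458 higher in C-iPSCs (0.0440%) at a Benjamini-Hochberg adjusted p under 0.05 and any difference. It also passed 7036 of the 10871 calls and 166 of the 251, which is 0.676% and 0.0159% of compared CpGs. Separation of all libraries by any amount was far more common, at 31.3% of CpGs with 4F-iPSCs higher and 3.53% with C-iPSCs higher. A gap of more than 20 percentage points between the nearest libraries was found at 22417 CpGs (2.15%) with 4F-iPSCs higher and 431 (0.0414%) with C-iPSCs higher. Without C-iPSC library 2, the higher of the C-iPSC libraries, 29876 CpGs were called higher in 4F-iPSCs, and without C-iPSC library 1, 696 were called higher in C-iPSCs.

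Called CpGs moved between high and intermediate levels more often than between the ends of the scale. At the 10871 CpGs higher in 4F-iPSCs, the medians were 81.5% and 80.6% in the 4F-iPSC libraries and 36.0% and 42.9% in the C-iPSC libraries. Both 4F-iPSC libraries were at 80% or more at 4750 of them (43.7%), and both C-iPSC libraries were under 30% at 2201 (20.2%). Only 93 CpGs met both conditions. Of these 10871 calls, 6110 had no other call of the same direction within 300 bp. At the 251 CpGs higher in C-iPSCs, the medians were 18.3% and 17.4% in 4F-iPSCs and 59.4% and 68.7% in C-iPSCs. With at least 10 reads in both mESC libraries at 9392 of the CpGs higher in 4F-iPSCs, the mESC level was nearer to that of C-iPSCs at 9018 (96.0%). At 6335 of the 9392 (67.5%) it lay beyond the C-iPSC level, on the side away from 4F-iPSCs, so these CpGs are nearer to C-iPSCs because mESCs were lowest. Of the CpGs higher in C-iPSCs with such reads, it was nearer to C-iPSCs at 158 of 190 (83.2%).

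The CpGs higher in 4F-iPSCs lay mostly away from promoters and in CpG-poor sequence. Intergenic DNA held 53.7% of them but 19.9% of compared CpGs, introns held 24.4%, exons 11.2%, and promoters 10.7%, against 53.2% of compared CpGs in promoters. Sequence marked as repeats by soft-masking held 48.3% of the calls and 13.9% of compared CpGs. The share of CpGs called higher in 4F-iPSCs was between 1.72% and 2.08% where the 100 bp to each side and the CpG itself held 12 CpGs or fewer, and 0.0821% where they held 21 or more. The share called higher in C-iPSCs was 0.0101% in the most CpG-poor windows and 0.0839% in windows with 13 to 15 CpGs, a count of 66 calls, and was 0.0136% with 16 to 20 CpGs and 0.00534% with 21 or more. These shares describe the CpGs and have no test, since neighbouring CpGs share fragments.

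**Figure D2:**
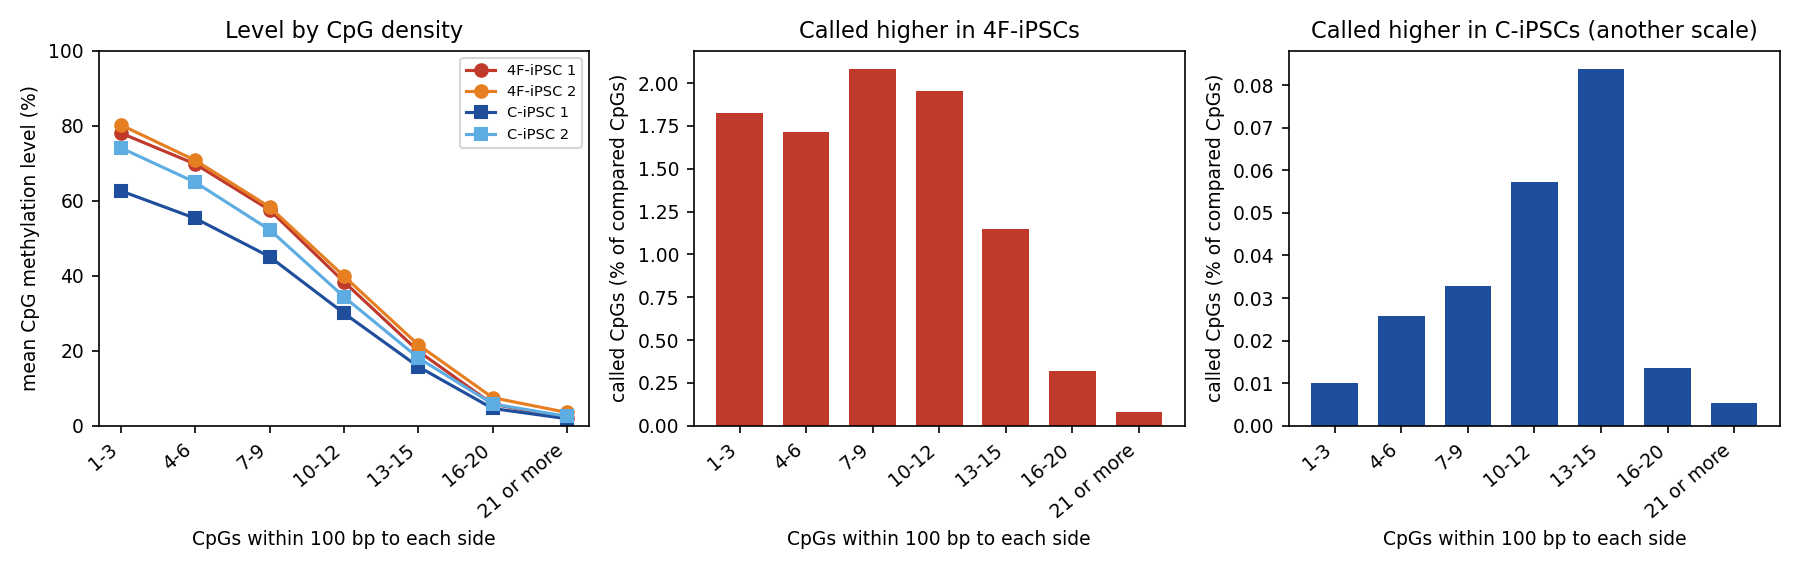
CpGs grouped by the number of CpGs within 100 bp to each side, the CpG itself included (x axis). The left panel gives the mean level of each iPSC library in percent, and the other panels give CpGs called higher in 4F-iPSCs and in C-iPSCs as a percent of compared CpGs, on separate scales that start at 0. The share called higher in 4F-iPSCs is 2.08% with 7 to 9 CpGs and 0.0821% with 21 or more.

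The sex chromosomes had a larger share of their CpGs called than the autosomes. All cells were male, and the number of X and Y copies in each library was not tested. On the X chromosome, 899 of 25119 CpGs (3.58%) were called higher in 4F-iPSCs, against 0.959% on the autosomes. Both in soft-masked sequence (6.57% against 3.29%) and outside it (1.72% against 0.602%) the X had the larger share. The mean level on the X was 46.1% and 47.9% in 4F-iPSCs and 36.9% and 41.3% in C-iPSCs. On the Y, 224 of 1178 CpGs (19.02%) were called, and levels were 77.8% and 79.3% against 57.2% and 64.1%. Autosomes ranged from 0.670% on chromosome 11 to 1.31% on chromosome 7. No test was made of the difference between chromosomes.

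Neighbouring calls were joined into differentially methylated regions (DMRs), runs of at least 3 calls of the same direction at most 300 bp apart. There were 554 DMRs higher in 4F-iPSCs and 26 higher in C-iPSCs. Of the former, 14 lay in the imprinted clusters that the study names, namely Ddc-Grb10, Dlk1-Dio3, H19-Igf2, Kcnq1ot1-Cdkn1c, Mest-Copg2, Peg12-Ube3a, and Peg3-Usp29 (the last taken here for the cluster spelled Peg3-Usp9 in the study), and 540 lay outside them. None of the 26 lay in a cluster. Among the 540, 287 were intergenic, 119 in introns, 75 at promoters, and 59 in exons. They were short, with a median of 3 called CpGs and 98.5 bp, and 32 had at least 10 calls. Median levels of these regions were 81.5% for 4F-iPSCs against 42.1% for C-iPSCs. Since the calls chose the DMRs, levels given for them are a description with no test. Without C-iPSC library 2 the number higher in 4F-iPSCs was 1630, and without C-iPSC library 1 the number higher in C-iPSCs was 53, and without C-iPSC library 2 it was 17.

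The DMR with the most called CpGs lay in Zfp316. It spanned chr5:143252981-143254428 in the last exon, from the end of the untranslated part into the zinc finger coding sequence, and 107 of its 126 compared CpGs were called. The mean level was 36.4% and 50.9% in the 4F-iPSC libraries, 2.99% and 2.83% in the C-iPSC libraries, and 2.60% and 3.59% in the mESC libraries. Both 4F-iPSC libraries stood apart from the other 4 libraries, and their own SD was 10.3 points. A second DMR at chr5:143254770-143255314, with 37 called of 47 compared CpGs, had 36.6% and 51.8% in 4F-iPSCs, 8.51% and 4.84% in C-iPSCs, and 5.61% and 4.98% in mESCs. The median depth in the first was between 96.5 and 175.5 reads per CpG in the iPSC libraries. The stretch printed above for Zfp316 had 27 called of 29 compared CpGs and levels of 38.5% and 51.8% against 2.19% and 0.669%.

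**Figure D3:**
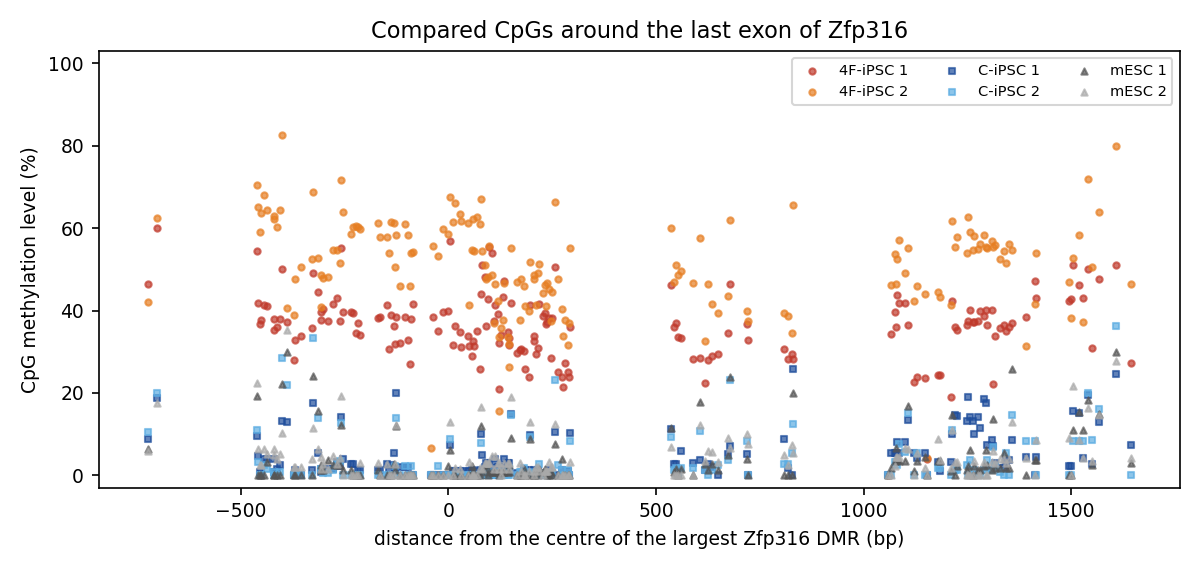
Level of each compared CpG in percent (y axis) by distance in bp from the centre of the largest Zfp316 DMR (x axis), 1 point for each library. The 4F-iPSC libraries, with means of 36.4% and 50.9% over the DMR, lie above the C-iPSC libraries, with means of 2.99% and 2.83%, at most but not all CpGs of the DMR, and the C-iPSC libraries are mixed with the mESC libraries.

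Other coding exons showed the same order of levels. In Repin1 (chr6:48597393-48597864), 32 of 33 CpGs were called, with 52.4% and 64.4% in 4F-iPSCs, 13.4% and 11.01% in C-iPSCs, and 9.19% and 11.4% in mESCs. In Chst13, which encodes a sulfotransferase (chr6:90309526-90309753), 16 of 21 CpGs were called, with 56.8% and 67.7% against 22.7% and 26.1%. In Chst13 the mESC libraries, at 12.9% and 14.5%, were below the C-iPSC libraries, and in Repin1 they overlapped with them.

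Outside the 12 DMRs with the most calls, further large DMRs were picked after their values were seen. Socs5, a suppressor of cytokine signalling (chr17:87134677-87134919), had 80.6% and 79.6% in 4F-iPSCs and 23.4% and 35.0% in C-iPSCs over 13 CpGs of a coding exon. Zfp629, another zinc finger gene, had 84.4% and 83.5% against 33.9% and 38.3% at chr7:127611030-127611280, and its mESC levels of 67.2% and 57.6% lay between the types. Near the start of Lhx9, a developmental transcription factor gene (chr1:138841453-138841904), the levels were 75.8% and 73.1% against 32.2% and 33.7%, with 4.32% and 6.52% in mESCs. At the promoter of Nefm, a neurofilament gene (chr14:68123720-68123859), they were 57.0% and 49.3% against 3.76% and 9.37%.

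Of the 540 DMRs higher in 4F-iPSCs, 11 (2.04%) overlapped a gene named Zfp, Zscan, Zkscan, or Zim, which include the DMRs of Zfp316 and Zfp629, and these were looked up after the values were seen. Of compared CpGs outside the clusters, 1.47% lay within 1 kb of a gene with such a name, so the count of DMRs is near the background and is no result about these genes. In Zfp619 (chr7:39536617-39536699), an exonic DMR had 70.3% and 74.3% in 4F-iPSCs and 30.0% and 43.8% in C-iPSCs. Exonic DMRs in Zfp30 (chr7:29793014-29793080) had 33.8% and 51.1% against 5.38% and 10.5%, and in Zfp13 (chr17:23576403-23576477) 45.1% and 56.0% against 13.4% and 16.8%.

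Imprinted loci outside the named clusters made up another part of the large DMRs. A list of 35 such genes was fixed with earlier results known, and 19 of the 540 DMRs overlapped one of them or its promoter, among them 10 of the 32 with at least 10 calls. Of all compared CpGs outside the clusters, 0.185% lay within 1 kb of the 34 of these genes found by name in the annotation. Since the list was made with such results known, these counts are a description. Gnas, a G protein subunit gene with several imprinted transcripts, had a DMR of 60 called CpGs (chr2:174299003-174300607), at 51.9% and 57.5% in 4F-iPSCs, 7.01% and 8.70% in C-iPSCs, and 29.7% and 33.7% in mESCs. A smaller Gnas DMR (chr2:174297999-174298474) had 63.0% and 61.7% against 15.8% and 21.4%. At Impact, a translation regulator gene, an intronic DMR (chr18:12973131-12973506) had 48.9% and 61.4% against 2.76% and 2.39%. In all 3, the mESC libraries lay between the C-iPSC and 4F-iPSC libraries.

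The DMRs at promoters of Plagl1, Zrsr1, and Nnat and in the exon of Nap1l5 had the same order. At Plagl1, a zinc finger growth regulator (chr10:13090824-13091189), 37 of 38 CpGs were called, with 52.0% and 58.6% in 4F-iPSCs, 5.10% and 9.79% in C-iPSCs, and 43.2% and 40.7% in mESCs. Zrsr1, a splicing factor retrogene, had DMRs at chr11:22971902-22972265, with 50.3% and 62.8% against 4.82% and 4.46%, and at chr11:22972565-22973162, with 44.8% and 56.5% against 4.44% and 3.68%. Nnat, which encodes neuronatin, an endoplasmic reticulum protein (chr2:157560106-157560470), had 45.6% and 55.6% against 2.17% and 5.97%. Nap1l5, a nucleosome assembly gene (chr6:58906634-58906866), had 54.0% and 69.9% against 7.61% and 4.41%. At all of these the C-iPSC libraries were at or under 10%, and mESC levels ranged from 16.7% at Nnat to 43.2% at Plagl1.

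**Figure D4:**
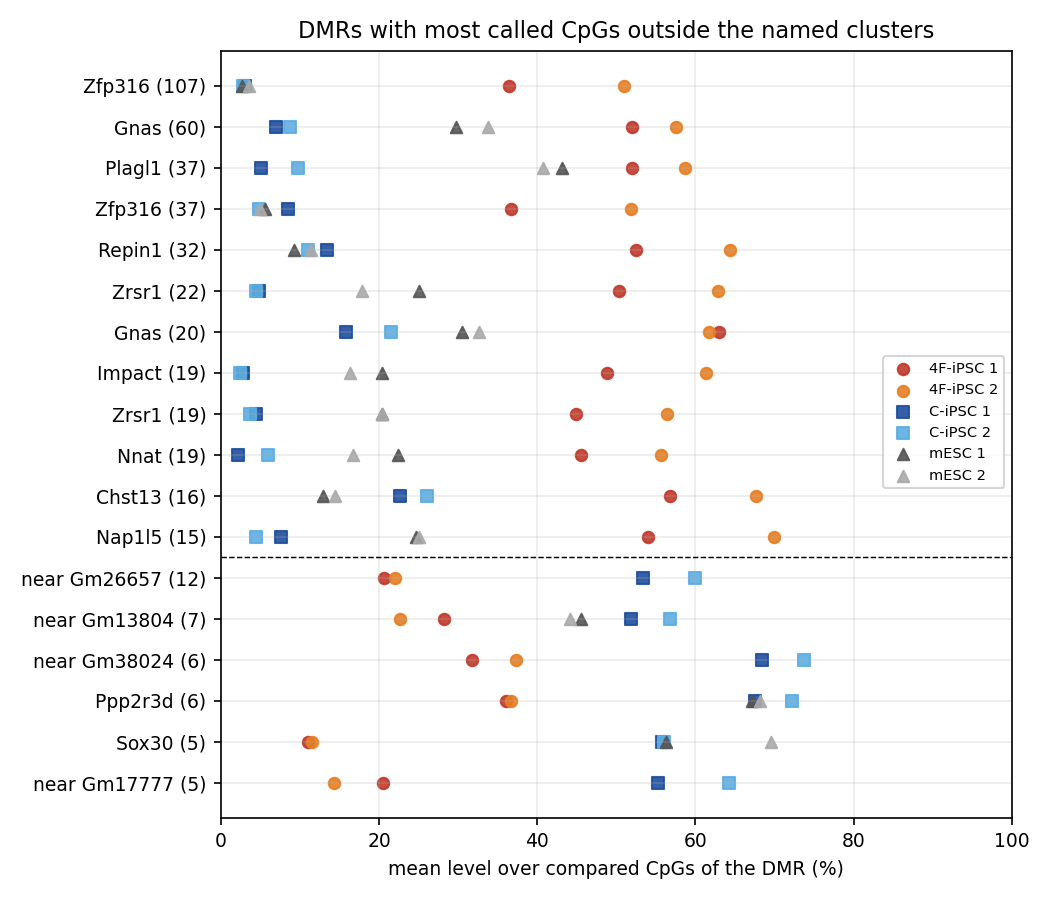
Mean level in percent (x axis) over the compared CpGs of the 12 DMRs higher in 4F-iPSCs (above the dashed line) and 6 of the 8 higher in C-iPSCs (below it) with the most called CpGs, with the number of called CpGs in brackets and 1 point for each library. At Zfp316, Repin1, and Chst13 the mESC libraries lie close to or below the C-iPSC libraries, while at Gnas, Plagl1, Zrsr1, Impact, Nnat, and Nap1l5 they lie between the types.

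The hexamer TGCCGC, searched on both strands, was present in 300-base windows at the centre of 13 of the 32 DMRs with at least 10 calls (40.6%). It was present in 74 of 537 DMRs of any size on the assembled chromosomes (13.8%) and in 20.9% of windows centred on every compared CpG there. The printed stretches held 2 matches in Zfp316, 1 in Repin1, 1 in Nap1l5, and none in Dazl, Sox30, or Rest. The 32 DMRs were picked for many called CpGs, and 10 of them overlapped the imprinted list, which was made with earlier results known. The windows were not matched for CpG density, so these shares are a description. A match describes the letters and not a bound site.

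Regions higher in C-iPSCs were few, and in some of them the number of reads also differed. In Sox30 (chr11:46014366-46014545), levels were 10.98% and 11.5% against 55.8% and 56.0%, with 56.3% and 69.5% in mESCs, and reads in 4F-iPSCs, relative to the total of each library, were 0.511 times those in C-iPSCs. In Rest (chr5:77268527-77268605), levels were 5.80% and 10.4% against 41.0% and 49.3%, with 36.1% and 40.1% in mESCs, and the ratio of relative reads was 0.489. The part of these differences in reads in the levels was not tested.

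At other DMRs the ratio of relative reads was nearer to 1. In an intron of Ppp2r3d, a phosphatase subunit gene (chr9:124441945-124442155), the levels were 36.0% and 36.7% in 4F-iPSCs, 67.5% and 72.2% in C-iPSCs, and 67.1% and 68.2% in mESCs, at a ratio of 0.833. An intergenic DMR at chr2:98389527-98389894 had 28.2% and 22.7% against 51.9% and 56.8%, at a ratio of 0.845. At chr4:56729050-56729276, levels were 20.6% and 22.0% against 53.4% and 60%, but relative reads in 4F-iPSCs were 2.05 times those in C-iPSCs and the mESC libraries had medians of 1 and 1.5 reads. At chr1:8249091-8249326 and chr1:117434058-117434105 the mESC libraries had a median of 0 reads, and 4F-iPSCs had 31.7% and 37.3% at the first and 20.5% and 14.3% at the second, against 68.4% and 73.8%, and 55.3% and 64.3%, in C-iPSCs. Over all 26 DMRs, both C-iPSC libraries had more than 2 times the relative reads of both 4F-iPSC libraries at 3 (11.5%) and the reverse held at 1 (3.85%). Among the 540 DMRs higher in 4F-iPSCs, 15 (2.78%) had more than 2 times the relative reads in 4F-iPSCs and 0 in C-iPSCs. Over all compared CpGs these shares were 0.647% and 0.158%.

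Promoters were tested over libraries with limma, on the mean level within 1 kb of a transcript start in 17589 genes with at least 5 compared CpGs there. At a Benjamini-Hochberg adjusted p under 0.05 and a difference of at least 20 percentage points, 207 promoters (1.18%) were higher in 4F-iPSCs and 3 (0.0171%) were higher in C-iPSCs. In all 210, every library of one type was above every library of the other. The median difference over all promoters was 0.828 points. Of the 207, 35 were HCPs (0.270% of HCPs), 135 ICPs (3.62%), and 37 LCPs (4.00%). The median of the 207 was 78.6% for 4F-iPSCs, 50.6% for C-iPSCs, and, where mESCs had reads, 34.0% for mESCs. Leaving out a 4F-iPSC library left 26 and 23 promoters higher in 4F-iPSCs, and leaving out C-iPSC library 1 or 2 gave 158 and 780. For C-iPSCs the same omissions gave 0, 0, 11, and 3.

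**Figure D5:**
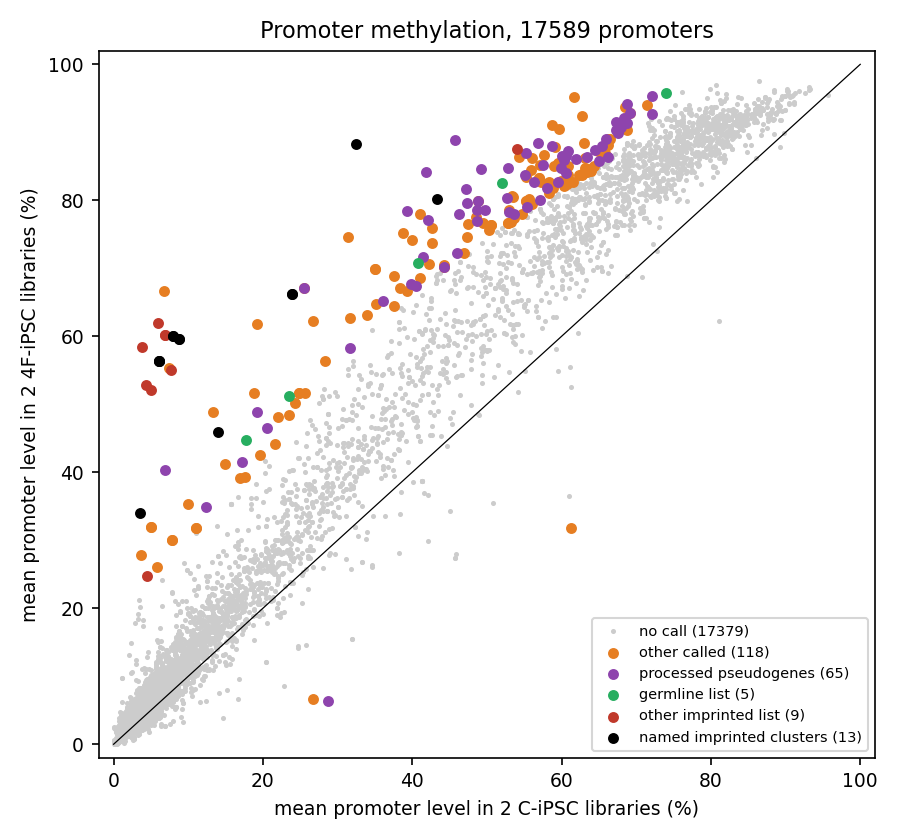
Mean promoter level in percent in the 2 C-iPSC libraries (x axis) and the 2 4F-iPSC libraries (y axis) for 17589 promoters, with equality as a line and called promoters coloured by group. Called promoters lie mostly above the line, 207 against 3, and among the 9 called promoters of the imprinted list all but Fkbp6 have a mean under 10% in C-iPSCs.

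Outside the named clusters, the largest promoter difference was at Platr12 (chr1:63199313-63201313), a noncoding transcript whose start lies inside the imprinted gene Gpr1 and 73.0 kb from Zdbf2. Its level was 68.0% and 65.4% in 4F-iPSCs, 6.13% and 7.35% in C-iPSCs, and 18.3% and 9.79% in mESCs, a difference of 59.95 points ± 7.20 (SE, limma adjusted p = 7.53e-13). Nap1l5 followed with 55.9 points ± 6.86 (SE, limma adjusted p = 2.29e-12). These SEs and p-values rest on a spread common to promoters of like mean level, not on that of each promoter. The SDs in 4F-iPSCs and C-iPSCs were 1.83 and 0.862 points at Platr12, and 11.2 and 2.26 points at Nap1l5. Airn, the noncoding RNA that silences Igf2r on the paternal copy, had 54.7% and 62.3% against 4.15% and 3.57% (limma adjusted p = 5.54e-13). Peg10, a retrotransposon-derived gene, and Sgce, a sarcoglycan gene, share 1 promoter and the same 11 CpGs, with 59.7% and 60.7% against 10.0% and 3.66%. Zrsr1, Plagl1 with the overlapping Gm27741, and Nnat differed by 48.5, 47.4, 47.8, and 47.2 points. These promoters were also called when any 1 of the 4 libraries was omitted.

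The other promoters among the 12 largest were not of imprinted genes. Klra3, a natural killer cell receptor gene, had 75.6% and 73.6% against 28.0% and 34.8%, on 145 and 144 reads per CpG in 4F-iPSCs and 57.8 and 36.8 in C-iPSCs. The processed pseudogene AC113104.2 had 89.9% and 87.8% against 40.02% and 51.4%, with 10.96% and 11.96% in mESCs. D13Ertd608e had 59.3% and 64.3% against 15.2% and 23.3%, again with more reads per CpG in 4F-iPSCs, 170 and 197 against 79.7 and 69.1. None of the 3 was called without 4F-iPSC library 1 or without 4F-iPSC library 2.

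Among the 35 imprinted genes outside the clusters, 30 had a measured promoter, and 9 of them (against 1.18% of all promoters) were higher in 4F-iPSCs and 0 higher in C-iPSCs. The 9 were Nap1l5, Airn, Peg10, Sgce, Zrsr1, Plagl1, Nnat, Fkbp6, and Mcts2. Peg10 and Sgce rest on the same CpGs and are not separate measurements. The list was made with earlier results known, so the count is a description. Mcts2, a retrogene inside H13, had 29.7% and 19.7% against 3.93% and 4.95%, and it was not called without 4F-iPSC library 1 or C-iPSC library 1. Of the other 21, 18 were under 10% in both types, such as Igf2r at 2.81% and 4.17% against 3.51% and 3.48%, so the median difference over the 30 was 1.23 points. Peg13 did not pass the test, with 66.5% and 68.9% in 4F-iPSCs, 43.6% and 59.3% in C-iPSCs, and 77.9% and 79.3% in mESCs (limma adjusted p = 0.442). Between 7 and 10 of the 30 were called with each library left out in turn.

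Germ-cell genes were another list with calls. Of 69 listed genes, 45 had a measured promoter. The median difference was 8.02 points against 0.828 over all promoters. In 35 of the 45 both 4F-iPSC libraries were above both C-iPSC libraries, which held for 25.6% of all promoters. It held for 15.8% of HCPs, 47.0% of ICPs, and 75.3% of LCPs. Median levels of the list were 32.6% in 4F-iPSCs and 22.0% in C-iPSCs, against 3.81% and 3.01% over all promoters. The list was chosen with earlier results known and was not matched for level, so these values are a description. The test passed for 6 of the 45, against 1.18% of all promoters, and in no case with C-iPSCs higher. Fkbp6, a meiotic chaperone gene that is also on the imprinted list, had 86.7% and 88.4% against 49.9% and 58.2%. Tuba3a, a testis tubulin gene, had 84.2% and 81.0% against 46.8% and 57.4%. Aurkc, a meiotic kinase gene, had 76.6% and 65.0% against 31.3% and 50.2%. Rpl10l, a testis ribosomal retrogene, had 47.0% and 55.4% against 18.6% and 28.5%. In all 6 the mESC libraries were below the C-iPSC libraries. The other members called were Odf2l and Pdha2, and the count was 0 and 0 without 4F-iPSC library 1 or 2, 5 and 10 without C-iPSC library 1 or 2, and 3 with at least 30 reads per CpG.

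Well-known members of the germline list did not pass the promoter test. Sycp3, a protein of the meiotic chromosome axis, had 68.0% and 71.0% against 41.4% and 55% (limma adjusted p = 0.144). Dazl had 39.9% and 40.3% over the whole promoter of 82 CpGs, against 23.4% and 27.8% (limma adjusted p = 0.449). Within it, the DMR at chr17:50293263-50293616 had 13 called of 27 compared CpGs, with 71.1% and 72.5% against 37.9% and 44.7%, and 15.8% and 22.7% in mESCs. Ddx4, the germ-cell RNA helicase VASA, had 17.3% and 18.1% against 14.4% and 15.0%.

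The lists for other cell types had 0 or 1 call each, which at 1.18% of all promoters is no result about these lists. None of the 18 measured pluripotency promoters was called, and 16 were under 10% in both types. Of 19 fibroblast promoters 0 were called, with a median difference of 1.36 points and the largest at the collagen gene Col5a2, 47.8% and 48.02% against 25.01% and 36.1%. Of 21 extraembryonic endoderm promoters 1 was called, Srgn, a proteoglycan gene, with 85.3% and 78.8% against 57.5% and 63.2%, which was not called without 4F-iPSC library 1, 4F-iPSC library 2, or C-iPSC library 1, nor with the replicate block. Of 15 trophoblast promoters and 15 promoters of the methylation machinery 0 were called, with median differences of 0.917 and 0.526 points. In the latter list the largest difference was at Tet1, a demethylating enzyme, with 39.1% and 45.2% against 19.9% and 29.8% (limma adjusted p = 0.235).

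Processed pseudogenes, copies of mRNAs put back into the genome, were frequent among called promoters. They made up 805 of the 17589 promoters and 64 of the 207 called higher in 4F-iPSCs, so 7.95% of them were called against 0.621% of 13195 protein-coding genes. Their median difference was 11.5 points. LCPs of any gene type had a mean difference of 10.5 points, and 4.00% of them were called, against 0.270% of HCPs. The part of CpG content in the share of pseudogenes called was not tested. Processed pseudogenes resemble their parent genes, and the authors left out read pairs without a unique position. On the X chromosome, 21 of 476 promoters (4.41%) were called higher in 4F-iPSCs, against 1.08% on the autosomes and 1.18% of all promoters. They included the testis-expressed Magea2, Mageb18, Xlr, and Xlr3c, named after their values were seen. Magea2 had 78.5% and 82.0% against 52.4% and 59.0%.

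The 3 promoters higher in C-iPSCs were those of Gm13840, Ppp1r2-ps3, and 2810429I04Rik. Gm13840, a sense intronic transcript, had 28.6% and 35.1% in 4F-iPSCs and 52.0% and 70.6% in C-iPSCs, a difference of -29.5 points ± 7.87 (SE, limma adjusted p = 0.0183). Ppp1r2-ps3, a processed pseudogene, had 6.01% and 6.74% against 30.7% and 26.8%. The noncoding RNA 2810429I04Rik had 4.32% and 9.09% against 19.8% and 33.8%. In the last 2, the mESC libraries were between 19.5% and 32.7%. None of the 3 was called without 4F-iPSC library 1 or without 4F-iPSC library 2, and 2810429I04Rik was not called without C-iPSC library 2.

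None of the 4 reprogramming factor promoters was called. Pou5f1 (Oct4) had 11.7% and 22.5% in 4F-iPSCs against 5.76% and 6.71% in C-iPSCs over 5 CpGs, a difference of 10.9 points that passed the adjusted p (limma adjusted p = 0.0258) but not the size. At any size, 1.63% of promoters passed with 4F-iPSCs higher and 0.0284% with C-iPSCs higher. At its introns, reads per CpG and 1000000 reads were 16.9 and 13.7 in 4F-iPSCs and 16.3 and 13.2 in C-iPSCs, but 0.928 and 1.70 in mESCs, so the Pou5f1 levels rest on an excess of reads in both iPSC types. Sox2, Klf4, and Myc had promoter levels between 1.89% and 7.48% in the 4 libraries, with limma adjusted p = 0.955 for each. The Sox2 promoter had 102.6 and 86.3 reads per CpG in 4F-iPSCs, against 70.5 and 59.5 in C-iPSCs. At the Klf4 and Myc promoters the reads per CpG overlapped between the types. The part of retroviral copies in these levels was not tested. Reads on coding exons were 1.47 times as many in 4F-iPSCs as in C-iPSCs at Klf4 and 1.37 times at Sox2. At the coding exons of Myc, with 2 CpGs, the ratio was 0.923, at Klf4 introns it was 0.843, and at Sox2 flanks 1.01. Both 4F-iPSC libraries lay above both C-iPSC libraries on the Klf4 coding exons, with 0.987 and 1.02 against 0.674 and 0.695 reads per CpG and 1000000 reads.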

How the data were processed

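DNA methylation was measured by RRBS in 2 libraries of each cell type, 4F-iPSCs, C-iPSCs, and mESCs. Per the study's methods, the authors digested DNA with MspI, used BSMAP 2.90 for alignment to mm10, dropped pairs without a unique position, and made CpG calls with MOABS. The deposited counts are all reads and methylated reads per CpG, with strands merged and no normalization. The deposited fraction column entered no test and was checked against the ratio of these counts.

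CpGs with at least 10 reads in each of the 4 iPSC libraries were compared, and each CpG call used an unadjusted Fisher's exact test, a difference above 33.3 percentage points, and separated libraries. The quasi-binomial model took its dispersion from limma 3.58.1, which gave the same value, 2.79, for all CpGs. Promoters were tested with limma and an intensity trend, with 1 start per gene. The trend gave promoters of like mean level like SEs, whatever their own spread. Annotation was GENCODE M21 on GRCm38, the same build as mm10. HCPs had a 500-bp window with a CpG ratio above 0.75 and GC share above 0.55, and LCPs had none with a ratio of 0.48 or more. Clusters span the named genes with 5 kb added to each side. Scripts were tested on simulated data.

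Genes named are the 12 DMRs higher in 4F-iPSCs and 8 higher in C-iPSCs with the most calls outside the clusters (2 are not reported here), the 12 and up to 8 promoters with the largest differences, up to 4 called members per list, 5 identity genes, and 4 reprogramming factors. Other genes in the text were chosen after their values were seen. Members and lists were chosen with earlier results of these data known. Counts cover reads, not molecules, so their precision is that of counting only.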

Additional observations from a re-analysis of the deposited data

How the results depend on the processing

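Over all CpGs, DMRs, and promoters, the counts higher in 4F-iPSCs were above those higher in C-iPSCs under every alternative run, while their size depended on depth and thresholds. CpG calls (higher in 4F-iPSCs, then in C-iPSCs) were 6363 and 160 with at least 30 reads, 66044 and 1062 with a difference above 0.2, 1127 and 42 above 0.5, 7036 and 166 with the quasi-binomial adjusted p, 30282 and 820 with reads thinned to 10, and 5623 and 133 without soft-masked CpGs. DMRs were 312 and 16 with at least 30 reads, 154 and 11 with at least 5 calls, and 237 and 14 without soft-masked CpGs. The quasi-binomial model gave 7040 and 166 with a difference above 33.3 percentage points. Promoters were 134 and 1 within 0.5 kb, 76 and 2 with at least 10 CpGs, 112 and 3 with at least 30 reads, 275 and 5 with a difference of at least 0.1, and 41 and 0 with at least 33.3 percentage points. The difference of library means was 7.99 points from pooled reads. Alternatives without soft-masked CpGs, without X and Y, without CpGs whose relative reads differed over 2 times, with crossed numbers, and those of the quasi-binomial model were chosen after seeing the data. The cause of these changes was not tested.

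Leaving out 1 library gave 9286 to 29876 CpG calls higher in 4F-iPSCs and 188 to 696 higher in C-iPSCs, 436 to 1630 and 17 to 53 DMRs, 5438 to 64819 and 158 to 397 CpGs by the quasi-binomial model, 23 to 780 and 0 to 11 promoters, and a difference of means of 2.88 to 7.40 points. A type is then left with a lone library, assumed to vary like the other type. The promoter differences of Myc and Klf4, not called, were -1.01 and -0.130 points without 4F-iPSC library 2, and 3.26 and 2.14 points without 4F-iPSC library 1.

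The labels number libraries 1 and 2 in each type without pairing them. Deviations of number 1 from number 2 in the types correlated at 0.107 over CpGs and -0.182 over promoters. With the replicate block, 10869 and 251 CpGs and 152 and 3 promoters were called, and with crossed numbers 10871 and 251 CpGs and 110 and 2 promoters. Of the repeats of the named promoters under these alternatives, 270 kept direction and call, 44 lost the call, and 2 turned. The germline list had 0 to 10 called promoters over the libraries left out and 3 with at least 30 reads.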

Other observations

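Genes of the sex chromosomes were among the promoters higher in 4F-iPSCs, and those named here were picked after their values were seen. Pcdh11x, a protocadherin gene of the brain, had 79.7% and 76.3% in 4F-iPSCs, 37.6% and 44.5% in C-iPSCs, and 26.8% and 33.4% in mESCs. Trpc5, a cation channel gene, had 63.2% and 74.7% against 31.5% and 43.7%, and Ldoc1, a retrotransposon-derived gene, had 74.1% and 73.5% against 38.0% and 47.4%. On the Y chromosome Kdm5d, a histone demethylase gene, had 84.9% and 82.0% against 58.8% and 51.7%. Among noncoding genes, 18 of 829 lincRNA promoters (2.17%) and 9 of 377 miRNA promoters (2.39%) were higher in 4F-iPSCs, against 1.18% of all promoters. For antisense and processed transcript promoters the counts were 8 of 982 (0.815%) and 3 of 374 (0.802%). For sense intronic and bidirectional lncRNA promoters they were 4 of 34 (11.8%) and 2 of 166 (1.20%).

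A DMR at the promoter of Sfi1 (chr11:3193348-3193597) had a median of 6260 reads per CpG in 4F-iPSC library 1 and 4325.5 in C-iPSC library 2, far above the medians of the libraries. Its levels were 69.4% and 68.3% in 4F-iPSCs, 36.4% and 31.2% in C-iPSCs, and 33.2% and 39.6% in mESCs. Exonic CpGs of Cdh15 (chr8:122864737-122864842) had 83.7% and 76.8% against 26.4% and 34.8%.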
